A study of Mus musculus with 72 samples.

Results

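The subunits of the mitochondrial respiratory chain and of the ATP synthase were followed in mouse liver at 6 times of day under 4 feeding paradigms. They were taken by symbol from the rows of the count table that are protein-coding genes in the GENCODE M21 annotation: Ndufa, Ndufb, Ndufc, Ndufs and Ndufv genes with a number, Sdha to Sdhd, all Uqcr genes, the Cox4 to Cox8 genes and all Atp5 genes, together with the 13 protein-coding genes of the mitochondrial chromosome. Of 97 such candidates, 84 nuclear and 13 mitochondrial, those with a mean of at least 1 CPM (counts scaled to the library total) over the 72 libraries were kept. This left 86 of the 51912 rows: 77 nuclear genes (36 of complex I, 4 of complex II, 8 of complex III, 12 of complex IV and 17 of complex V) and 9 mitochondrial genes (7 of complex I, 1 of complex III and 1 of complex IV). All 86 also passed the filter on low counts. Subunits with other symbols, such as Cyc1 of complex III and Ndufab1 of complex I, fell outside the rule. The complex was read from the symbol, so Ndufa4, now known as a subunit of complex IV, is counted with complex I, and Cox7a2l, a factor that joins complexes III and IV, with complex IV.

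Complexes I and II pass electrons from NADH and succinate to ubiquinone, complex III passes them on to cytochrome c, and complex IV gives them to oxygen. Complexes I, III and IV pump protons out of the matrix, and complex V, the ATP synthase, lets them back to make ATP. The mitochondrial genome encodes core subunits of complexes I, III, IV and V, whereas all of complex II and the remaining subunits are nuclear, made in the cytosol and imported. In the liver these complexes supply the ATP for gluconeogenesis and urea synthesis and take up the electrons released by fatty acid breakdown.

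All libraries came from livers of male wild-type C57BL/6J mice, 43 to 49 days old at the start and kept in 12 h of light and 12 h of dark with free water, and they differed in food access. The paradigms were night-restricted, ad libitum and arrhythmic feeding, and a further arrhythmic group that per the labels did not adapt fully, here called incompletely adapted arrhythmic feeding. Each paradigm held 18 libraries, 3 at each of ZT02, ZT06, ZT10, ZT14, ZT18 and ZT22 (zeitgeber time, hours after lights on). The labels number the replicates from 1 to 3 but do not say whether each came from its own animal; a p-value here refers only to the scatter of such libraries, which may be technical.

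Library totals ran from 4342026 to 12286021 counts. Libraries differed in how counts depended on base composition: the slope of a library's log2 deviations on the G and C content of the last 500 bases of each transcript ran from -0.37 to 0.48 per 10 percentage points, with an SD of 0.176. The night-restricted libraries numbered 1 stood apart. Their slopes were 0.41, 0.41, 0.07, 0.05, 0.31 and 0.48 from ZT02 to ZT22, whereas the other 12 night-restricted libraries lay between -0.16 and 0.18. Within that set of 6 the slope was thus high at ZT02, ZT06, ZT18 and ZT22 and low at ZT10 and ZT14, so that it moved with time of day. The main calls below are therefore also given with the slope as a covariate and without those 6 libraries. Hepatocyte markers (8 of 8 tested) summed to between 28431 and 50594 CPM in all libraries, and 6 of the 8 were rhythmic under night-restricted feeding. No skeletal muscle marker passed the filter and the muscle genes Ckm and Myh1 were at 0 everywhere. Of 4 brown adipose markers 2 were tested, and the list summed to between 38.8 and 1138 CPM, with Ucp1, the uncoupling protein of brown fat, at 0 everywhere. In whole tissue, fewer cells of a type and less RNA per cell cannot be told apart.

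Several mitochondrial genes have near-identical copies on chromosome 1. Only 9 of the 13 genes passed 1 CPM. mt-Co2 and mt-Co3, core subunits of cytochrome c oxidase, had 8 and 15 counts in all 72 libraries together. mt-Atp6, the proton channel subunit of the ATP synthase, had 58, and mt-Atp8, which shares 43 of its 204 bases with mt-Atp6, had 0. The unprocessed pseudogenes Gm28661, Gm28437 and Gm10925 on chromosome 1 matched mt-Co2, mt-Co3 and mt-Atp6 over 681, 783 and 678 bases with 0 mismatches. These copies had means of 5170, 12288 and 6830 CPM, against 0.0163, 0.029 and 0.11 CPM for the mitochondrial genes. Reads that match both places alike cannot be assigned to either, so mt-Co2, mt-Co3 and mt-Atp6 are not described over the day.

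Most counts also lay on the copy for mt-Nd3, a complex I subunit near the ubiquinone site, with 9.24 CPM against 748 CPM for its copy Gm28438, which differs by 1 mismatch in 345 aligned bases. For mt-Co1, the catalytic subunit of complex IV, the copy Gm29216 had 391 CPM against 457 CPM and 6 mismatches in 492 aligned bases. mt-Nd4l went the other way, with 177 CPM against 0.00994 CPM for Gm10222 and 0 mismatches in 294 bases. A stretch of 60 bases of the mitochondrial strand of each of 3 genes is shown with its copy, read from the GENCODE M21 transcripts of GRCm38, in lower case with the bases that differ in capitals. The mitochondrial stretches lie at chrM:9459-9518 (mt-Nd3), chrM:6381-6440 (mt-Co1) and chrM:7634-7693 (mt-Co2), plus strand, and the copies at chr1:24613060-24613119, chr1:24616138-24616197 and chr1:24614885-24614944, minus strand.
mt-Nd3: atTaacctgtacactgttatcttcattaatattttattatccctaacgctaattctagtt
Gm28438: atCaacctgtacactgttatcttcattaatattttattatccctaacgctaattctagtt
mt-Co1: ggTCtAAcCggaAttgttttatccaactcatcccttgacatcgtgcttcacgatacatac
Gm29216: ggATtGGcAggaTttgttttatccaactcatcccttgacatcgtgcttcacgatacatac
mt-Co2: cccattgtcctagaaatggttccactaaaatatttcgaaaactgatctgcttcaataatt
Gm28661: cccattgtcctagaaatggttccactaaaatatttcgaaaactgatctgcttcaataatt
In mt-Co1 all 6 mismatches fall in this stretch, at the far end of the copy, and mt-Co2 shows none.

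Among the 77 nuclear members, 10 shared over 40 percent of the 50-base words in their last 500 bases with another gene, and their levels are uncertain for that reason. Ndufs3, a core subunit of complex I, had 53.9 percent of its words in other genes and 38.9 CPM against 175 CPM for the pseudogene Gm12251. Ndufs5 had 43.5 percent and 4.22 CPM against 66.1 CPM for BC002163. The others were Uqcrc2, Atp5l, Atp5h, Atp5o, Uqcrb, Ndufb6, Cox5a and Cox7c, with 40.8 to 100 percent of words shared. Of the genes described below, Atp5f1 shared 24.2 percent, mostly with Gm12231 at 2.58 CPM against its own 398, and Cox5b 17.5 percent with Gm11273, at 161 CPM against 145. Atp5g2 shared 23.1 percent, mostly with Gm10175, which at 182 CPM stood far above its own 15.1. Cox6c shared 21.3 percent with Cox6c2 (63.8 CPM against 1818), and Ndufb2 21.5 percent with Braf (4.87 against 231). Atp5g1 shared 15.7 percent, spread over 188 other genes, and Cox6a1 14.2 percent.

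The liver form led in every pair of isoforms that the symbol rule caught. Cox4i1 averaged between 205 and 288 CPM in the 4 paradigms, while Cox4i2, its hypoxia and lung form, had 13 counts in all libraries. Cox6a1 averaged 522 to 608 CPM and its muscle form Cox6a2 had 37 counts in all. Cox8a averaged 344 to 417 CPM and Cox8b had 13 counts. Cox7a1, the muscle and brown fat form, was present at 4.05 to 5.14 CPM beside 436 to 512 CPM of Cox7a2. Just above the threshold stood Atp5s (1.19 CPM), Sdhd (2.62) and Ndufs5 (4.22), and just below it Ndufa4l2 (0.478), Cox6b2 (0.154) and mt-Atp6. These reads come from the transcript's 3′ end, so CPM is used here as the level per transcript.

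Together the 77 nuclear members took 2.58 to 3.63 percent of a library's counts. The share was 3.13 ± 0.245 percent (SD, n = 18) with night-restricted and 2.99 ± 0.248 with ad libitum feeding. It was 3.05 ± 0.138 with arrhythmic feeding and 3.02 ± 0.165 where adaptation was incomplete. The largest gap between these means was smaller than the SD of the night-restricted or the ad libitum libraries. Complexes I and V each held close to 1 percent (0.927 ± 0.0649 and 0.935 ± 0.0845, n = 72), complex IV 0.61 ± 0.0638, complex III 0.44 ± 0.0412 and complex II 0.139 ± 0.0113 percent.

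The 9 mitochondrial members took 4.19 ± 1.17 percent (SD, n = 18) with night-restricted and 4.27 ± 0.746 with ad libitum feeding, and 4.18 ± 0.618 with arrhythmic feeding and 4.47 ± 0.782 where adaptation was incomplete. mt-Nd4 and mt-Cytb, at 22077 and 14013 CPM over all libraries, made up most of it. The lowest 4 shares of the night-restricted libraries, 1.88, 2.03, 2.43 and 2.84 percent, belonged to the libraries numbered 1 at ZT22, ZT06, ZT02 and ZT18, the same 4 that had high slopes. The other 14 ranged from 3.93 to 5.69 percent. Counting the 6 chromosome 1 copies with the members raised the share to between 3.28 and 8.95 percent (median 7.2).

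**Figure D1:**
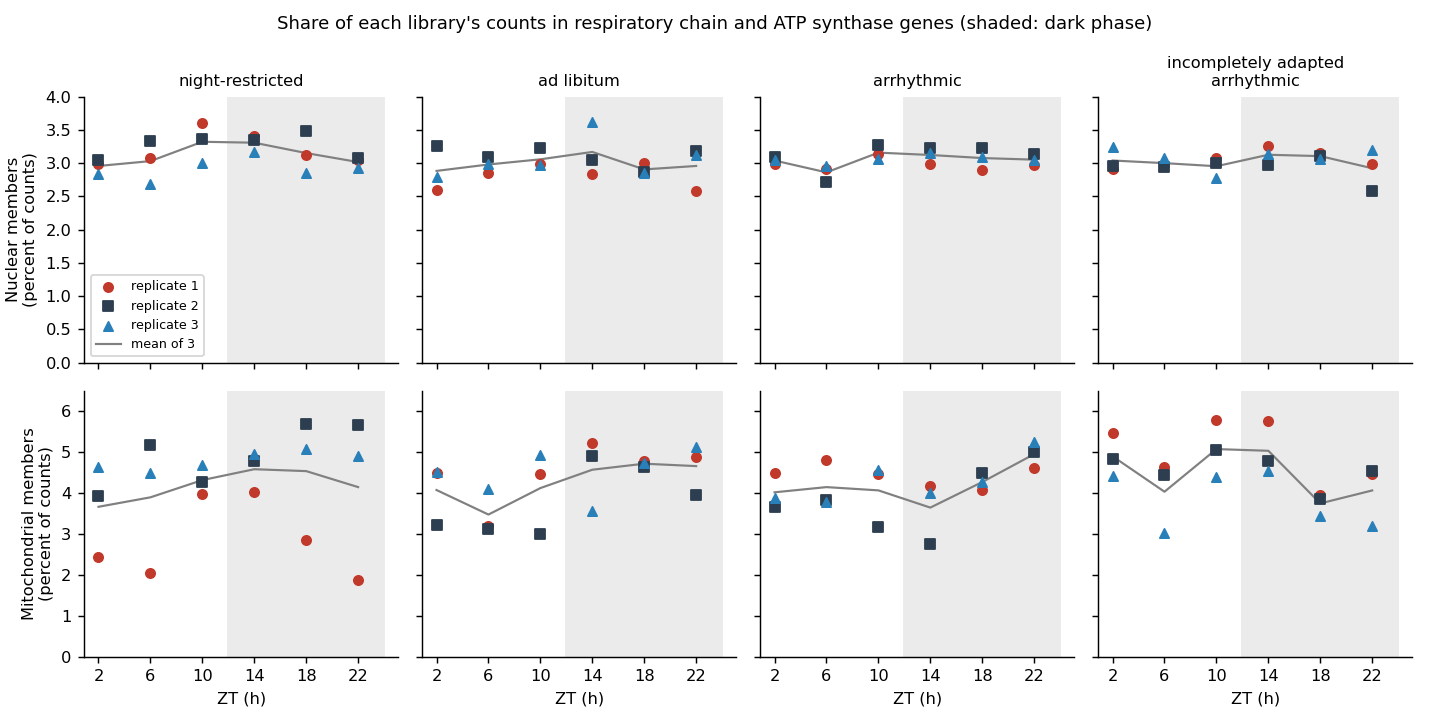
Share of each library's counts (percent) in the 77 nuclear members (upper row) and the 9 mitochondrial members (lower row) against ZT (h) in the 4 paradigms; points are libraries, marked by replicate number, and lines join the means of 3. The nuclear share stays between 2.58 and 3.63 percent in all 72 libraries, and the mitochondrial share falls below 3 percent in 4 night-restricted libraries numbered 1.

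Daily rhythms of nuclear subunits were called under night-restricted feeding and, in the fit without the slope covariate, in no other paradigm. The share called there was below that of genes in general. A gene was called rhythmic when the F test of a 24 h cosine in edgeR passed an adjusted p of 0.05 over all 12712 genes tested. Under night-restricted feeding 15 of 77 nuclear members (19.5 percent) and 0 of 9 mitochondrial members passed, where 29.9 percent of all genes did. At an unadjusted p under 0.05 the numbers were 27 and 1. Under ad libitum feeding 0 of 86 members passed (7.48 percent of all genes), under arrhythmic feeding 0 (3.37 percent) and under incompletely adapted arrhythmic feeding 0 (3.63 percent). Unadjusted, 2, 8 and 1 nuclear and 1, 0 and 0 mitochondrial members fell under 0.05 in those paradigms, and DESeq2 called 1, 1 and 0 nuclear members. By complex, the night-restricted calls were 5 of 36 in complex I, 1 of 4 in II, 1 of 8 in III, 3 of 12 in IV and 5 of 17 in V.

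Atp5f1, which encodes subunit b of the stalk that holds the ATP synthase head in place, had the smallest p. Under night-restricted feeding its libraries held 197, 377 and 278 CPM at ZT02, 150, 467 and 290 at ZT06, and 516, 537 and 356 at ZT10. They held 556, 655 and 456 CPM at ZT14, 333, 503 and 358 at ZT18, and 142, 369 and 370 at ZT22. All 3 libraries at ZT14 lay above all but 4 of the other 15, and the 3 lowest values of the paradigm were all libraries numbered 1. The fitted peak-to-trough range was 0.95 ± 0.19 on the log2 scale (SE), with the peak at ZT13.4 and an adjusted p of 0.000441 in edgeR. Its range was 0.34 under ad libitum feeding, with lowest, median and highest levels of 259, 389 and 529 CPM, 0.39 under arrhythmic feeding (288, 416 and 484 CPM) and 0.20 where adaptation was incomplete (306, 396 and 519 CPM). The levels of the 4 paradigms overlapped throughout. Without the night-restricted libraries numbered 1 its range was 0.66 and its edgeR adjusted p 0.052, and with the slope covariate as well 0.67 and 0.0369.

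Cox7b, a small subunit of complex IV, followed at 1.11 ± 0.25 (peak ZT13.4, edgeR adjusted p 0.00146). Its night-restricted levels were 235, 640 and 506 CPM at ZT02, 179, 800 and 469 at ZT06, 997, 857 and 699 at ZT10, 1058, 983 and 812 at ZT14, 456, 973 and 647 at ZT18, and 171, 632 and 654 at ZT22. The libraries at ZT10 and ZT14 were high and the library numbered 1 was the lowest of the 3 at each of the other times. Without those 6 libraries the range was 0.63 and the edgeR adjusted p 0.125.

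The other evening genes belonged to complexes I, III, IV and V. Ndufv2, the iron-sulphur subunit beside the NADH site of complex I, had a range of 0.52 ± 0.12 (peak ZT16.0, adjusted p 0.00392 in edgeR), and Ndufa8, an intermembrane-space subunit, 0.74 ± 0.19 (ZT14.6, 0.005). Uqcrb, a complex III subunit at the ubiquinone site, had 1.03 ± 0.27 (ZT13.6, 0.00817). Of the catalytic head of the ATP synthase, Atp5b (beta) had 0.63 ± 0.18 (ZT13.6, 0.015) and Atp5a1 (alpha) 0.61 (ZT15.6, 0.0285). Ndufb4, Atp5g3, which encodes the proton-carrying ring subunit c, and Cox5a, with ranges of 0.54, 0.86 and 0.70, made up the 10 members that peaked between ZT12 and ZT18. Sdhd, the membrane anchor of complex II, had the widest range of all, 2.25 ± 0.73 (ZT19.3, edgeR adjusted p 0.032), at only 0.487 to 13.2 CPM.

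Morning peaks were fewer, and their genes moved with the library slope in the other direction than 5 of the 10 evening genes. Cox4i1, the regulatory subunit of complex IV, was at 448, 281 and 273 CPM at ZT02, 388, 233 and 270 at ZT06 and 203, 215 and 233 at ZT10 under night-restricted feeding. It was at 206, 213 and 228 CPM at ZT14, 362, 237 and 250 at ZT18 and 554, 312 and 275 at ZT22. At ZT02, ZT06, ZT18 and ZT22 the library numbered 1 was the highest of the 3, and at ZT10 and ZT14 it was the lowest. Its range was 1.01 ± 0.26 with the peak at ZT0.0 (edgeR adjusted p 0.00752), and 0.41 (adjusted p 0.485) without the libraries numbered 1. Ndufa2 and Ndufa5, complex I subunits, and Atp5g1, another gene of subunit c, peaked at ZT2.1, ZT1.9 and ZT23.6, with ranges of 0.76, 0.48 and 0.86. All 4 morning genes rose with the library slope, while 5 of the 10 evening genes fell with it and 0 rose.

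The calls depended on the handling of the libraries numbered 1. Without them, 1 of 77 nuclear members, Sdhd, was rhythmic under night-restricted feeding, where 17.5 percent of all genes were. With the slope as a covariate and all libraries kept, 25 nuclear members were called, 12 of them among the 15, against 33.2 percent of all genes. Of the 25, 18 peaked between ZT12 and ZT18 and 1, Cox4i1, between ZT22 and ZT4. Peak times of all rhythmic genes were not counted, so evening peaks, in this fit or the one above, cannot be called particular to the members. With both changes, chosen together after seeing the data, 13 were called against 20.7 percent of all genes, among them Atp5f1, Atp5g1, Cox6a1, Cox7a2l, Ndufa12, Ndufc2, Ndufs4, Ndufs7, Ndufv2, Sdhb, Sdhd and Uqcr10. Of the 13, 4 were among the 15 and 12 among the 25. Ndufs7, an iron-sulphur core subunit of complex I, then had a range of 0.78 (edgeR adjusted p 0.00867), and Sdhb, the iron-sulphur subunit of complex II, 0.41 (0.0433).

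**Figure D2:**
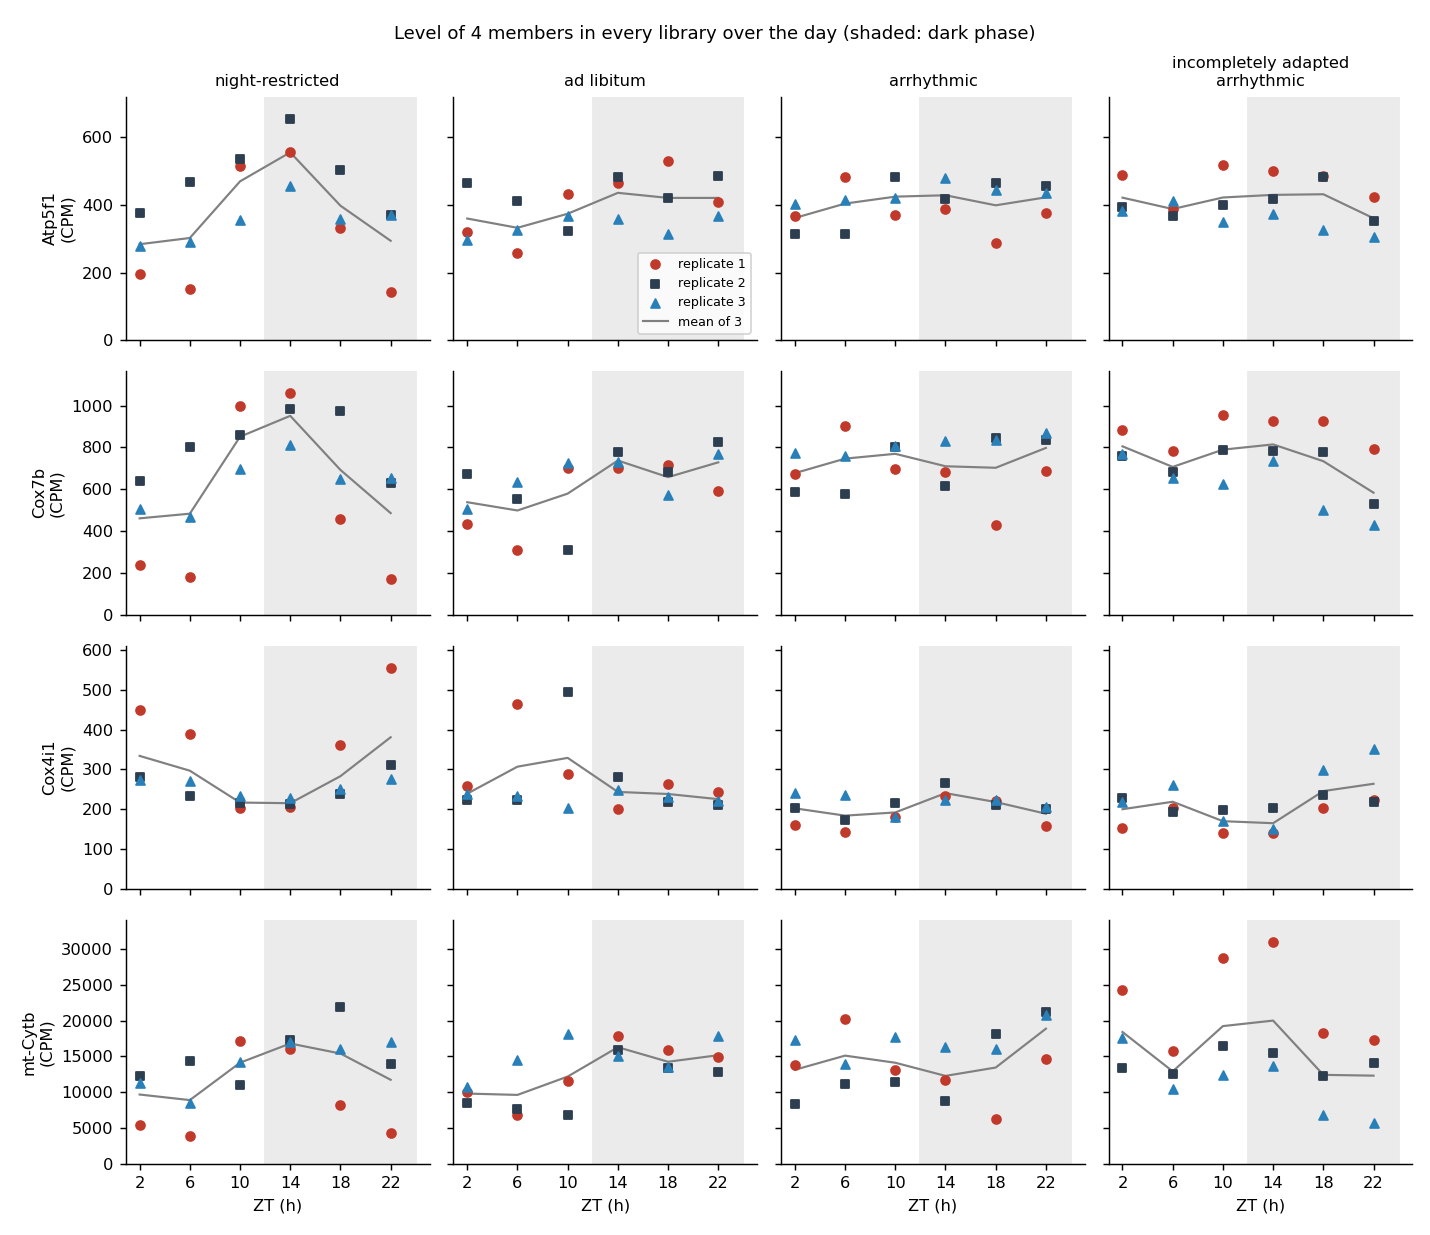
Level (CPM) of Atp5f1, Cox7b, Cox4i1 and mt-Cytb in each library against ZT (h) in the 4 paradigms, with points marked by replicate number and lines joining the means of 3. Under night-restricted feeding Atp5f1 and Cox7b are highest at ZT14 and Cox4i1 at ZT22, and the libraries numbered 1 lie outside the other 2 at ZT02, ZT06, ZT18 and ZT22.

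With the covariate a few members were called in the other paradigms. Under ad libitum feeding these were Ndufv2 (0.43 ± 0.12, peak ZT16.0, edgeR adjusted p 0.0328) and Atp5s, an ATP synthase coupling factor at about 1 CPM (1.44 ± 0.42, 0.0309), where 11.8 percent of all genes passed. Under arrhythmic feeding 2 nuclear members were called, against 6.36 percent of all genes, and Uqcr10, a small complex III subunit, had the smallest p (0.38 ± 0.10, ZT15.1, 0.0224). Where adaptation was incomplete it was Ndufs4 of complex I (0.41 ± 0.10, ZT13.6, 0.0166), against 6.38 percent. Ndufv2, Uqcr10 and Ndufs4 peaked between ZT12 and ZT18.

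In the edgeR fit of all libraries without the covariate no member passed in the other paradigms. Ndufv2 came first under ad libitum feeding (0.40, peak ZT15.8, edgeR adjusted p 0.0903) and under arrhythmic feeding (0.42, ZT13.3, 0.0978), and its night-restricted peak was at ZT16.0. Uqcrc1 came first where adaptation was incomplete (ZT18.5, 0.33), with a range of 0.95, wide beside the nuclear median of 0.32 there. Wide ranges were also seen in members that fell steeply with the library slope. Cox7c, a small subunit of complex IV, had 1.91 under night-restricted and 1.19 under ad libitum feeding (adjusted p 0.0586 and 0.43), and Sdhd had 1.27 under arrhythmic feeding (0.528). At the flat end stood Cox6c and Atp5mpl, both with 0.07 under night-restricted feeding, Ndufa7 and Ndufa5 with 0.06 under ad libitum feeding, and Atp5h and Atp5g3 with 0.05 and 0.06 under arrhythmic feeding.

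No mitochondrial member was called rhythmic in any paradigm in the edgeR fit of all libraries without the covariate. Under night-restricted feeding 1 was called by DESeq2, and 1 by edgeR without the incompletely adapted arrhythmic libraries numbered 1 or 3. mt-Cytb, cytochrome b of complex III, came nearest, with a night-restricted range of 0.88 ± 0.30 peaking at ZT15.3 (edgeR adjusted p 0.0572). Its levels were 5458, 12284 and 11299 CPM at ZT02, 3829, 14431 and 8441 at ZT06, 17113, 11025 and 14237 at ZT10, 16096, 17265 and 17063 at ZT14, 8256, 21940 and 16028 at ZT18, and 4334, 13911 and 16968 at ZT22. The 4 lowest were again libraries numbered 1, and with the covariate the range was 0.43 (adjusted p 0.224). mt-Nd1, mt-Nd4 and mt-Nd4l, membrane subunits of complex I, had ranges of 0.02 to 0.03, for mt-Nd4l with the limit that its copy sets. mt-Nd6 is the complex I subunit read from the other strand of the mitochondrial DNA. In edgeR with all libraries it was called only with the covariate (0.89, edgeR adjusted p 0.0276), at 4.61 to 27.3 CPM under night-restricted feeding.

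Ranges summed this up without a threshold. Listed from night-restricted through ad libitum to arrhythmic feeding, with the incompletely adapted libraries last, the median range of nuclear members was 0.47, 0.39, 0.41 and 0.32, that of the mitochondrial members 0.26, 0.31, 0.29 and 0.23, and that of all genes 0.70, 0.52, 0.43 and 0.42. With the slope covariate the nuclear medians were 0.39, 0.21, 0.24 and 0.18 against 0.57, 0.40, 0.35 and 0.35 for all genes. In every paradigm and in both fits the nuclear median lay below that of all genes. A fitted range is above 0 from noise alone, so the medians of all genes are given beside those of the members. All genes were not matched to the members in level, and few counts widen a fitted range. The lower nuclear medians therefore cannot be read as weaker rhythms.

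**Figure D3:**
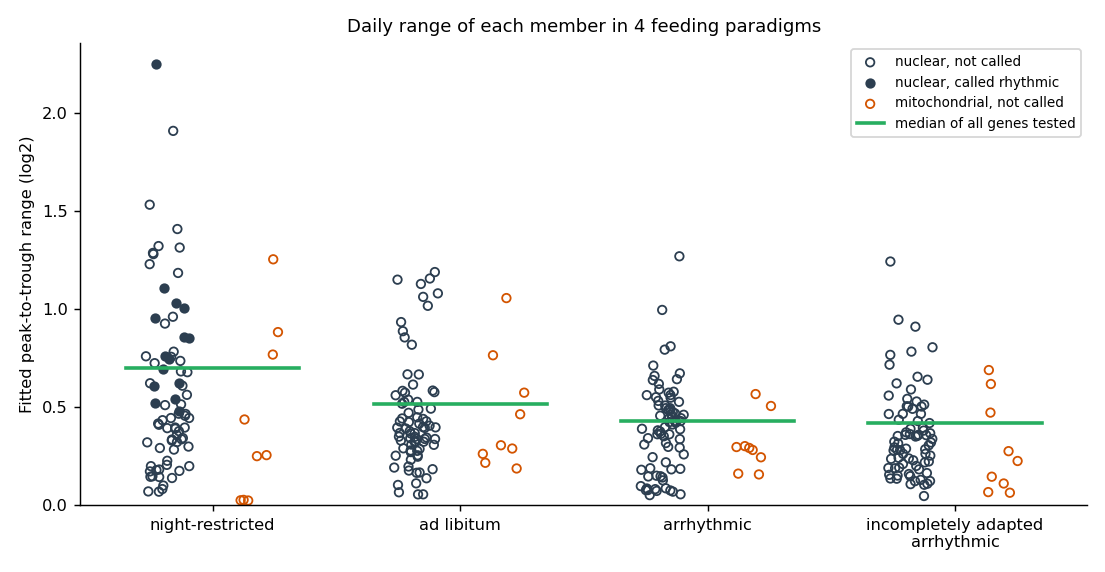
Fitted peak-to-trough range (log2) of each of the 86 members in the 4 paradigms; filled points passed the rhythm test, open points did not, and green bars mark the median of all 12712 genes tested. The 15 filled points are all nuclear and all under night-restricted feeding, where the median of all genes is 0.70.

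Rhythms were then compared between paradigms by testing whether the cosine and sine coefficients differed. The comparisons share libraries: arrhythmic feeding enters 3 of the 4, and night-restricted and ad libitum feeding each enter a pair of them. Between arrhythmic and night-restricted feeding 3 nuclear members differed (3.89 percent of all genes) and 0 mitochondrial members. Cox4i1 had a range of 0.50 under arrhythmic against 1.01 under night-restricted feeding (edgeR adjusted p 0.038), Ndufa2 0.43 against 0.76 (0.0476) and Ndufa5 0.35 against 0.48 (0.0487). Their arrhythmic peaks fell at ZT14.8, ZT14.4 and ZT15.5, far from the night-restricted peaks. None of the 3 passed with the slope covariate or without the night-restricted libraries numbered 1. With the covariate 0 of 86 members differed, where 3.28 percent of all genes did. In the other 3 comparisons 0 of 86 members differed by edgeR. Of all genes, 0.0236 percent differed between arrhythmic and ad libitum feeding (0.252 percent with the covariate), and 0 percent between ad libitum and night-restricted feeding (0.299 percent with the covariate) and between the arrhythmic paradigms. In that order 5, 6 and 0 nuclear members were under an unadjusted 0.05. Atp5f1 had a range wider by 0.62 under night-restricted than ad libitum feeding and Cox7b by 0.59, with adjusted p-values of 0.472 and 0.494 in edgeR. The count of 3 fell to 0 without the arrhythmic libraries numbered 1 or 2 or the incompletely adapted ones numbered 2.

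Mean levels over the day gave the most calls between arrhythmic and night-restricted feeding, most of them lower under arrhythmic feeding. The test called 8 of 77 nuclear members (7 lower, 1 higher) and 3 of 9 mitochondrial members (all lower), against 6.92 percent of all genes (1.76 percent higher and 5.16 percent lower). The median difference was -0.07 on the log2 scale for nuclear and -0.21 for mitochondrial members, against 0.00 for all genes, and 48 of 77 nuclear and 8 of 9 mitochondrial members were below 0. With the slope covariate the medians were 0.01, -0.26 and 0.01, and 34 nuclear and 8 mitochondrial members were below 0, so the nuclear set as a whole no longer lay lower. All 7 Kupffer cell and macrophage markers were below 0 as well (median -0.32, 0 called), and 5 of the 7 with the covariate (median -0.07). Their summed level ran from 654 to 2330 CPM under night-restricted and from 569 to 1190 CPM under arrhythmic feeding, and their part in the differences was not tested.

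Cox4i1 was lower by the smallest p. Its lowest, median and highest levels were 203, 260 and 554 CPM under night-restricted, 201, 236 and 495 under ad libitum, 143, 209 and 265 under arrhythmic, and 142, 204 and 350 under incompletely adapted arrhythmic feeding. The arrhythmic libraries sat low but overlapped the night-restricted ones. The difference was -0.56 ± 0.13 on the log2 scale (edgeR adjusted p 0.00583), -0.33 (0.00375) with the slope covariate, and -0.28 (0.263) without the night-restricted libraries numbered 1. With both changes it was -0.31 (0.0118).

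The other 6 lower nuclear genes were Uqcrc1, a core subunit of complex III (-0.62 ± 0.20, edgeR adjusted p 0.0409), Ndufv1, the NADH-binding subunit of complex I (-0.42 ± 0.12, 0.0267), Ndufa2 (-0.36, 0.04), Ndufc1 (-0.32, 0.0281), Ndufb2 (-0.32, 0.0409) and Cox6c (-0.27, 0.0295). Ndufa10 was the 1 higher member (0.39 ± 0.13, 0.0474). Atp5g2 and Ndufs5 had larger positive differences, 0.51 and 0.48, without passing (0.355 and 0.404). Uqcrc1 levels, with lowest, median and highest of 60.8, 85.5 and 175 CPM under night-restricted and 23.1, 64.6 and 138 under arrhythmic feeding, overlapped widely. With the slope covariate 6 nuclear members were called (2 higher, 4 lower) and 5 mitochondrial members (all lower), against 5.99 percent of all genes (2.95 percent higher and 3.04 percent lower). The 6 were Cox4i1, Ndufv1 and Ndufb2 from the 8, and Ndufs1, Ndufs8 and Ndufv3. Without the night-restricted libraries numbered 1 only Atp5c1 was called, and it was not among the 8. Without the arrhythmic libraries numbered 1 the count was 1, and without the night-restricted libraries numbered 3 it was 25.

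The 3 mitochondrial calls remained with the slope covariate and without the night-restricted libraries numbered 1. mt-Co1 had lowest, median and highest levels of 340, 510 and 644 CPM under night-restricted and 325, 446 and 495 under arrhythmic feeding, so the arrhythmic libraries were lower at the top and in the middle of the range while the groups overlapped. The difference was -0.25 ± 0.07 (edgeR adjusted p 0.0168), -0.26 with the covariate, and -0.29 (0.0183) without the libraries numbered 1. mt-Nd1 had 2070, 4000 and 5359 CPM against 2286, 3235 and 3967, a difference of -0.28 ± 0.09 (0.0364), and -0.44 (0.00253) without those libraries. mt-Nd5 differed by -0.19 ± 0.06 (0.0421), and by -0.26 (0.0214) without them. All 3 were also called with both changes; the mitochondrial members that passed numbered 5 with the covariate, 4 without those libraries and 7 with both. When library totals and TMM factors were taken without the mitochondrial chromosome, 1 passed, and 0 passed without the night-restricted libraries numbered 2 or the arrhythmic libraries numbered 2 or 3. Of the copies on chromosome 1, Gm28437 was lower under arrhythmic feeding (-0.28, edgeR adjusted p 0.0404), but not with the covariate (-0.21, 0.0763). Gm28438, the copy of mt-Nd3, differed by -0.21 (0.417), and by -0.45 (8.55e-05) with the covariate. Gm29216, the copy of mt-Co1, differed by -0.11 (0.705), and Gm28661 and Gm10925 by 0.21 and 0.07, none of them passing in either fit. The mt-Co1 call thus holds only for the reads placed on the mitochondrial gene.

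**Figure D4:**
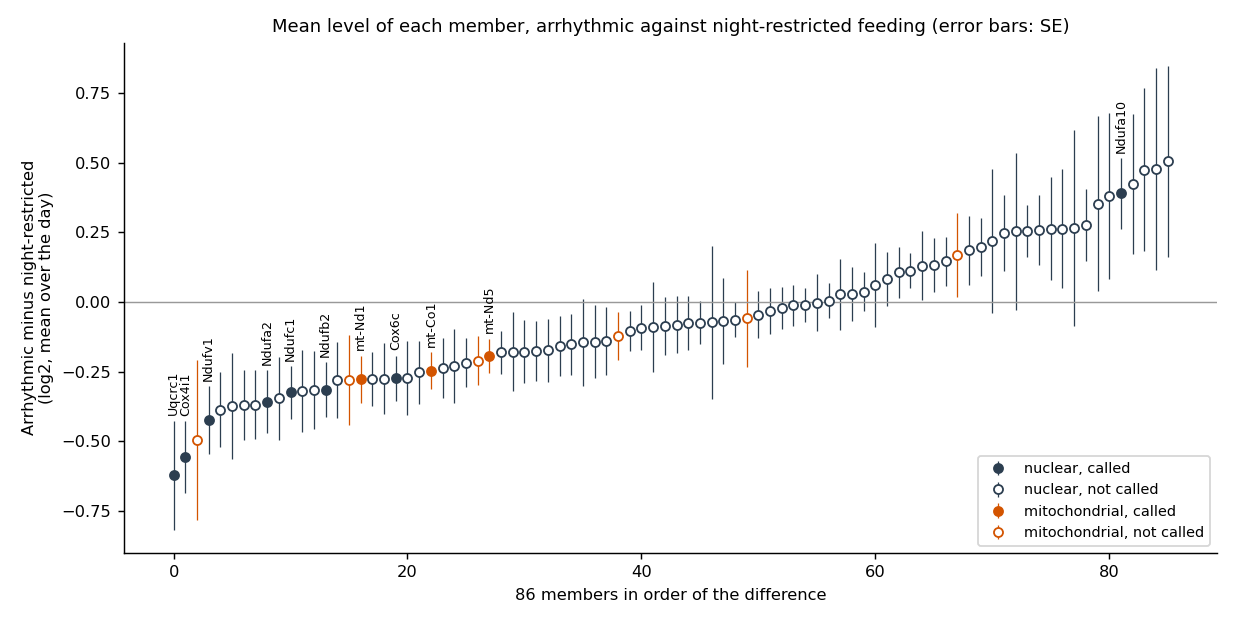
Difference in mean level over the day between arrhythmic and night-restricted feeding (log2) for the 86 members in order, with SE bars; filled points passed the test. Of the 11 filled points, 10 lie below 0 and Ndufa10 lies above.

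The remaining pairs differed little. Against ad libitum feeding, arrhythmic feeding had 1 nuclear member lower, Atp5c1, which encodes the rotating gamma subunit of the ATP synthase (-0.30 ± 0.09, edgeR adjusted p 0.049), where 2.1 percent of all genes were called (0.661 percent higher and 1.44 percent lower). That comparison gave 0 mitochondrial members. The lowest, median and highest levels were 189, 259 and 340 CPM of Atp5c1 under ad libitum and 155, 214 and 250 under arrhythmic feeding. Night-restricted feeding had higher Atp5g1 than ad libitum feeding, with 111, 150 and 328 CPM against 88.5, 115 and 195 (0.58 ± 0.13, adjusted p 0.0102), and higher Ndufc2, with 107, 170 and 266 against 95.4, 129 and 192 (0.45 ± 0.12, 0.0423), where 1.62 percent of all genes were called (0.724 percent higher and 0.897 percent lower). The groups overlapped for all of these genes. With the covariate these and Ndufc1 were called (0.37, 0.36 and 0.23, adjusted p 1.07e-05, 0.0384 and 0.0199), against 3.41 percent of all genes (1.31 percent higher and 2.1 percent lower). Neither Atp5g1 nor Ndufc2 passed without the night-restricted libraries numbered 1, when the count was 0, and it was 16 without those numbered 3. Against ad libitum feeding the count ran from 0 to 8 over the replicates left out, the 8 without the ad libitum libraries numbered 3. With the covariate, arrhythmic differed from ad libitum feeding in 6 nuclear members, against 6.14 percent of all genes (2.74 percent higher and 3.41 percent lower). Atp5h, a stalk subunit (0.40), Atp5g1 (0.25) and Ndufv3 (0.22) were higher, and Cox4i1 (-0.31), Atp5c1 (-0.31) and Ndufs1 (-0.19) were lower. Of the mitochondrial members mt-Nd3 was lower (-0.87 ± 0.18, edgeR adjusted p 0.00114), with the limit that its copy on chromosome 1 sets. Without the covariate Atp5h stood at 0.43 (adjusted p 0.0595), and Ndufc1 in night-restricted against ad libitum feeding at 0.33 (0.0509). Between incompletely adapted arrhythmic and arrhythmic feeding 0 of 86 members and 0 percent of all genes were called by edgeR, with 2 nuclear and 1 mitochondrial member under an unadjusted 0.05. Ndufs1 had the smallest p there, with a difference of 0.18 (adjusted p 0.934).

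Several core subunits passed no test of rhythm or mean level in the fit without the covariate, among them Ndufs1, Ndufs3, Ndufs7 and Ndufs8 of the electron-carrying arm of complex I, Sdha and Sdhb of complex II, Uqcrfs1, the Rieske protein of complex III, and Cox5b. Their night-restricted ranges ran from 0.17 (Ndufs7) to 1.31 (Uqcrfs1, adjusted p 0.131). Sdha, the flavoprotein that oxidises succinate, had a range of 0.18, 0.14, 0.07 and 0.16 in the order of paradigms above, and 136, 243 and 281 CPM as lowest, median and highest under night-restricted feeding. These were 203, 263 and 367 CPM under ad libitum feeding, 180, 259 and 328 under arrhythmic feeding and 184, 265 and 368 where adaptation was incomplete. The lowest night-restricted libraries were again numbered 1, with 136 CPM at ZT22 and 159 at ZT02.

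Most members moved with the library slope on 3′-end base composition, as did most genes. The slope is a property of the library, so anything else that varied with it enters the coefficient too. With the library slope as a covariate, 63 of 77 nuclear members (41 rising, 22 falling) and 8 of 9 mitochondrial members (all falling) had a coefficient that passed the test, where 75.8 percent of all genes did (37.1 percent rising and 38.7 percent falling). Of nuclear members with less than 45 percent G and C in the last 500 bases, 7 of 30 rose and 17 fell with the slope; from 45 to 55 percent, 21 of 32 rose and 4 fell; above 55 percent, 13 of 15 rose and 1 fell. Across the 77 nuclear members the Pearson correlation of coefficient and end composition was 0.49, and across 12696 genes 0.41, a description over genes measured in the same libraries. The extremes per SD of slope were Sdhd and Cox7c (both -0.97) and Ndufs7 (0.56), and among mitochondrial members mt-Nd3 (-0.78), mt-Nd2 (-0.50) and mt-Cytb (-0.37), while mt-Co1 (-0.03) did not pass. The 1 that fell above 55 percent was Atp5g2, another gene of subunit c, with 60.6 percent and a coefficient of -0.76. The slope was computed from genes outside the candidates, so the members did not enter it. The other genes did enter it, through their own end composition. A positive correlation across all genes was therefore built in, and the 0.41 is no independent measure to set beside the 0.49. How far this also raised the 75.8 percent was not tested.

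**Figure D5:**
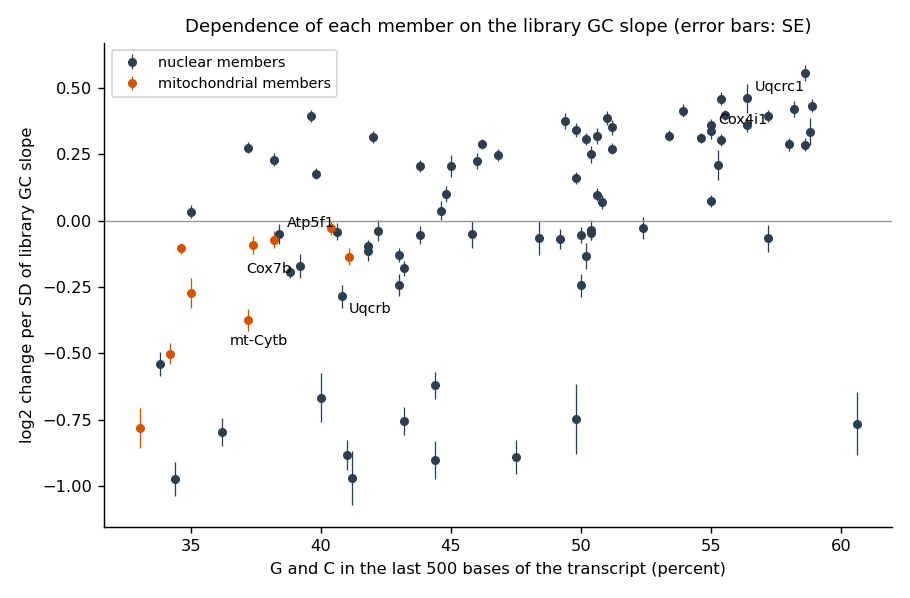
Change of each member per SD of library slope (log2, with SE) against the G and C content of the last 500 bases of its transcript (percent). Nuclear members above 55 percent lie mostly above 0, and all 9 mitochondrial members, between 33.0 and 41.1 percent, lie below 0.

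Promoters were looked up because regulators of this set are known by their sites. RefSeq promoters of GRCm38.p6, 250 bases before to 50 after the gene start, matched 63 of the 77 nuclear members by symbol. On either strand, the NRF1 core GCGCATGC was found in 10 of them (15.9 percent, against 2.8 percent of all 27025 promoters), the YY1 core AAGATGGC in 8 (12.7 against 2.88), the ETS core CCGGAAGT in 5 (7.94 against 4), the E-box CACGTG in 5 (7.94 against 7.24), the D-box TTATGTAA in 1 (1.59 against 0.955) and CCAAT in 27 (42.9 against 37.9). A match says only that these letters are present. A set of 3 members that the results turn on is shown 5′ to 3′ with their matches in capitals: Cox7b with the D-box and CCAAT, Atp5g1 with an E-box and CCAAT, of which a pair on opposite strands overlaps, and Uqcrc1 with the NRF1 core on both strands overlapping. They lie at chrX:106015450-106015749 (plus strand), chr11:96075582-96075881 (minus) and chr9:108936398-108936697 (plus).
Cox7b: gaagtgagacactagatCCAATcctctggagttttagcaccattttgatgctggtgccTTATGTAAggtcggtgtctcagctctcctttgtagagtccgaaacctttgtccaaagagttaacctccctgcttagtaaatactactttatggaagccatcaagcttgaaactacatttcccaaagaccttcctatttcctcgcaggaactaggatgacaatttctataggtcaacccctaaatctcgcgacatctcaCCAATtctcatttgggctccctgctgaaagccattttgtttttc
Atp5g1: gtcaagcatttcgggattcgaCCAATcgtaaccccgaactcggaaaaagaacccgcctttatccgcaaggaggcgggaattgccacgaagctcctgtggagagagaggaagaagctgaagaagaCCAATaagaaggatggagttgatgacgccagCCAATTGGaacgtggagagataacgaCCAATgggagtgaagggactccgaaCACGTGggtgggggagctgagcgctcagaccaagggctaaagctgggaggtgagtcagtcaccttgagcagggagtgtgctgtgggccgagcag
Uqcrc1: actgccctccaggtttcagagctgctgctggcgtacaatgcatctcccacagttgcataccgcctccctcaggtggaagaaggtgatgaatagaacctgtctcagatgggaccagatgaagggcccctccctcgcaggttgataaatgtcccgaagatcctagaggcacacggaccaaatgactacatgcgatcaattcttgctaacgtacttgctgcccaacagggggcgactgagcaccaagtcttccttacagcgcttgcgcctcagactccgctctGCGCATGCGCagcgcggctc
Atp5g1 and Uqcrc1 are among the members that rose with the library slope.

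Genes around the chain were read from lists by function. Of the assembly factors, 14 of 52 tested were rhythmic under night-restricted feeding, with a median range of 0.55, against 29.9 percent and 0.70 for all genes. Sco2, the copper chaperone of complex IV, had a range of 1.98 (edgeR adjusted p 8.65e-06, and 5.40e-08 with the covariate), and Ndufaf4, an assembly factor of complex I, 0.92 (5.05e-06). Of the mitochondrial ribosome, 16 of 77 passed, and of the genes that copy and express mitochondrial DNA 5 of 24, with medians of 0.46 and 0.63. Tricarboxylic acid cycle genes passed in 8 of 17 cases (median 0.75) and transcriptional regulators in 4 of 9 (median 0.97): Esrra (1.77, adjusted p 0.000125), Gabpa (0.97, 0.00555), Ppara (1.26, 0.0304) and Gabpb1 (1.08, 0.0406). A list of 7 held other electron carriers (Cycs, Etfa, Etfb and Etfdh), the chain subunits Cyc1 and Ndufab1, and Atpif1, and 1 of them passed. These rhythm counts came from the fit without the covariate, with the night-restricted libraries numbered 1 kept. With the covariate some calls were lost, as for Fh1 and Cox17, and others were gained, as for Surf1 and Suclg1. In mean level between arrhythmic and night-restricted feeding, where 5.16 percent of all genes were lower and 1.76 percent higher, 4 of 52 assembly factors and 2 of 9 regulators (Pprc1 and Gabpa) were lower. With the slope covariate 3 assembly factors and 0 regulators were (adjusted p 0.0876 for Pprc1 and 0.168 for Gabpa in edgeR). Of the 17 cycle genes 2 were higher and 1 lower, of the 77 ribosomal genes 1 was higher and 5 lower, and Atpif1, the inhibitor of the ATP synthase, was higher by 0.57 (adjusted p 0.00523).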

How the data were processed

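Liver 3′ mRNA was measured in 72 libraries, made per the labels with TRIzol and the Lexogen QuantSeq 3′ kit from 2 µg of RNA. The authors deposited raw read counts per Ensembl gene; STAR 2.4.2a was the aligner and mm10 (GRCm38.p5) the genome, per the submitters' processing notes. How reads were counted, on which strand and with which annotation was not given in the sources used here. A second table, normalized by the authors, was not used. GENCODE M21 (GRCm38) gave symbols, positions and transcript ends. The 279 identifiers without a symbol held 0.0107 percent of counts. The end of a gene was that of its longest protein-coding transcript, or else of its longest, which may not be where its reads lie. For Atp5g1 and Ndufb2 that transcript had 4715 and 4371 bases. All 72 columns were assigned from their names.

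Counts were fitted in edgeR 4.0.16 (R 4.3.3) by 1 quasi-likelihood model over all libraries, with a mean, cosine and sine (24 h) per paradigm, TMM scaling, filterByExpr over the 24 groups (12712 genes) and robust dispersions. P-values were adjusted by Benjamini-Hochberg over all genes at 0.05. A range is the fitted peak-to-trough log2 difference, and standard errors of ranges came from the delta method. The library slope left the candidates out. The script was tested on simulated data. DESeq2 1.42.0, other scalings, no filter, time as a factor, a replicate block, the slope covariate and leaving libraries out were alternatives. Tables and figures also used Python 3.11.15, numpy 2.4.6, pandas 2.3.3 and matplotlib 3.10.9.

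The members and lists were chosen with earlier results of these data known. Named were all mitochondrial members, the core subunits and isoform pairs, per test the nuclear members of smallest p and most extreme effect, the 3 genes on each side of the threshold, and every member called in a difference with at most 10 calls. For incompletely adapted arrhythmic feeding and for rhythm differences only some of those were described. A gene of the rule is not reported here.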

Additional observations from a re-analysis of the deposited data

Results flagged for a closer look

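The 3 nuclear members whose rhythm differed between arrhythmic and night-restricted feeding were picked out because 2 groups differed under the same test. Cox4i1 had an edgeR adjusted p of 0.038, Ndufa2 of 0.0476 and Ndufa5 of 0.0487, with differences in log2 range of -0.51, -0.33 and -0.13 (arrhythmic minus night-restricted), where 3.89 percent of all genes passed. Under night-restricted feeding the library numbered 1 was the highest of its 3 for Cox4i1 at ZT02 (448 CPM), ZT06 (388), ZT18 (362) and ZT22 (554), the times at which that set had high slopes on 3′-end base composition. All 3 genes rose with the slope, by 0.34, 0.31 and 0.16 log2 per SD. The part of the slope in the differences was not tested beyond the fits with it as a covariate and without those libraries, in which 0 of the 3 passed.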

How the results depend on the processing

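The 26 counts of members called were recomputed under 22 alternatives, the last of them (slope covariate with the night-restricted libraries numbered 1 left out) chosen after seeing the data. Of the 566 recomputed counts, 472 stayed within 1.5 times the count reported and 94 did not. Of 704 values for the 32 called results of single genes, 479 kept direction and side of the threshold, 217 kept direction only and 8 reversed. In the order nuclear and then mitochondrial members, the counts that moved were as follows.

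Rhythm under night-restricted feeding (15 and 0) gave 9 nuclear with no filter on low counts, 25 and 1 with the slope covariate, 27 and 2 with the replicate block and the covariate, 5 without the 5 libraries of largest slope, 3 with time as a factor, and 1 mitochondrial by DESeq2. Under ad libitum feeding (0) the nuclear count was 1 by DESeq2, 2 with the covariate, 3 with the block and covariate, 1 without the 5 libraries and 2 with the covariate and the libraries numbered 1 left out. Under arrhythmic feeding (0) it was 1, 2, 4, 1 and 2 in that order, and 1 mitochondrial with the block and covariate. Under incompletely adapted arrhythmic feeding (0) it was 1 in the 3 fits with the covariate.

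The rhythm difference between arrhythmic and night-restricted feeding (3) gave 1 with the replicate block alone and 0 with no filter, with the covariate, with the block and covariate, without the 5 libraries, with time as a factor and with the added setting. Night-restricted against ad libitum feeding (0) gave 1 with the block and covariate. Mean level in arrhythmic against night-restricted feeding (8 and 3) gave 2 and 0 with no filter, 0 nuclear without the 5 libraries, 5 nuclear with time as a factor, 1 mitochondrial with totals free of the mitochondrial chromosome, 5 mitochondrial with the covariate and with the block and covariate, and 7 with the added setting. Arrhythmic against ad libitum feeding (1 and 0) gave 0 nuclear with DESeq2 size factors, with totals free of the mitochondrial chromosome, with no filter and with time as a factor, 2 by DESeq2 and with the replicate block, 3 without the 5 libraries, 6 and 1 with the covariate, 8 and 2 with the block and covariate, and 10 and 2 with the added setting. Night-restricted against ad libitum feeding (2) gave 1 with no filter, 0 without the 5 libraries and 1 with time as a factor.

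Leaving out each replicate of a paradigm gave 1 to 18 nuclear and 0 to 1 mitochondrial members rhythmic under night-restricted feeding, 0 to 1 nuclear under ad libitum and 0 to 1 under arrhythmic feeding, and 0 to 3 for the arrhythmic against night-restricted rhythm difference. For mean level it gave 1 to 25 and 0 to 4 in arrhythmic against night-restricted, 0 to 8 nuclear in arrhythmic against ad libitum, 0 to 16 nuclear in night-restricted against ad libitum, and 0 to 1 mitochondrial in incompletely adapted arrhythmic against arrhythmic feeding. The reversed values were differences in log2 range between arrhythmic and night-restricted feeding: Ndufa2 0.16 without the 5 libraries and 0.090 with the added setting; Ndufa5 0.0097 with the covariate, 0.0092 with the replicate block and covariate, 0.20 without the 5 libraries, 0.087 without the libraries numbered 1 and 0.15 with the added setting; and Cox4i1 0.075 without the libraries numbered 1. Over the replicates left out these ranged from -0.29 to 0.087 for Ndufa5 and from -0.82 to 0.075 for Cox4i1. The cause of these changes was not tested.

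Deviations of same-numbered libraries correlated with a median of 0.242 within a paradigm (-0.428 to 0.835 over 180 pairs), against -0.116 for different numbers there, so libraries of a number tended to go together over the times of a paradigm. Across paradigms the median was -0.0165 for the same and 0.0075 for different numbers. Not every pair exceeded 0.1, and the labels give no shared source, so the numbers were not taken to pair the samples. The p-values therefore treat the libraries of a paradigm as independent, which the correlation within paradigms does not bear out. The replicate block gave a number the same shift in all paradigms, so it did not model sets within a paradigm. That block alone gave 17 rhythmic nuclear members under night-restricted feeding. Genes with few counts, such as Sdhd, Atp5s and Ndufs5, give wide intervals. Copies on chromosome 1 and shared transcript ends limit what can be read for the genes named above.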
